A study of Homo sapiens with 4 samples.

Results

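The RAS, RAF, MEK and ERK kinase genes on this array are HRAS, NRAS, ARAF, BRAF, MAP2K1, MAP2K2 and MAPK3. Every non-control probe whose RefSeq accession belongs to 1 of these 7 genes was taken, which gave 8 of the 34127 probes of the array, 2 for NRAS and 1 for each other gene. Of all probes, 25422 could be paired with a gene name, for 19459 genes. RNA came from HuCCT1, a cell line of human intrahepatic cholangiocarcinoma. The cells were transfected by lipofection with 30 nM Pre-miR-376c (miR-376c), the Pre-miR negative control (miControl), a GRB2 siRNA (siGRB2, the siRNA that the study calls siGRB2-2) or AllStars, a nonspecific control siRNA (siControl). All 4 transfectants received 5 ng/ml EGF in medium with 0.1% serum 24 h later and were harvested after a further 24 h. Each condition is represented by 1 single-colour Agilent array, so no test across conditions could be made. All samples were of 1 cell line, all received EGF, and no array of cells without transfection or without EGF was used here.

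RAS proteins are small GTPases that switch on at the membrane when a receptor such as the EGF receptor recruits the adaptor GRB2 and the exchange factor SOS. Active RAS engages the RAF kinases ARAF and BRAF, RAF phosphorylates the MEK kinases MAP2K1 and MAP2K2, and MEK phosphorylates the ERK kinases, of which MAPK3 encodes ERK1. The chain is regulated mainly by binding and phosphorylation of the proteins, which a measurement of mRNA does not see.

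The sequence of the transfected mature miRNA is shown because a microRNA pairs with its targets mainly through the seed, bases 2 to 8, given in capitals. RefSeq (GRCh38.p14) places it at chr14:101039732-101039752 on the plus strand.
hsa-miR-376c-3p: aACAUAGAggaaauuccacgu

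HRAS, ARAF and MAPK3 had the same order of signal over the 4 arrays (siControl lowest, then miR-376c, siGRB2 and miControl), and the 250 bases before their outermost RefSeq starts are shown so that these promoters can be compared. They are written 5′ to 3′ along the gene, with GC boxes (GGGCGG, or CCGCCC for the other strand) in capitals. The windows are chr11:535577-535826 (minus strand), chrX:47560955-47561204 (plus strand) and chr16:30123221-30123470 (minus strand) of GRCh38.p14.
HRAS: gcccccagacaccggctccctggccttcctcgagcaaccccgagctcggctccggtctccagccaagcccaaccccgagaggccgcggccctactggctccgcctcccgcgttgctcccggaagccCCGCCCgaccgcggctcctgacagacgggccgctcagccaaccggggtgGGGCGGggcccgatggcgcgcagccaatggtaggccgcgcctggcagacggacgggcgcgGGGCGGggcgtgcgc
ARAF: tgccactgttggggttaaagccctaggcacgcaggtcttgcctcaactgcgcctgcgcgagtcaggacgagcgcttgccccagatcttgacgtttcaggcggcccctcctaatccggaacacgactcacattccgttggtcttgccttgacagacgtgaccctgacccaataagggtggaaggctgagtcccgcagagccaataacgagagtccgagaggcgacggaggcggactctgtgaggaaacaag
MAPK3: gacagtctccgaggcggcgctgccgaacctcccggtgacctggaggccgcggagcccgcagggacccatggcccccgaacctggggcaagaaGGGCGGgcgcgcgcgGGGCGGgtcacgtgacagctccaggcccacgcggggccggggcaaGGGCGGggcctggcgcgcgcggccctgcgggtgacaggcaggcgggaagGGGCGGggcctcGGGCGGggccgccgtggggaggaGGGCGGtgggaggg
With the first 50 bases after the start included, MAPK3 held 8 GC boxes, HRAS 5 and ARAF none. Of all 34796 RefSeq windows of 300 bases, 44.9% held a GC box and 9.04% held at least 4. MAPK3 had a GC content of 80.7% and HRAS of 78.0%, against a median of 58.7% over all windows, while ARAF had 60.3%. Among the other members, NRAS and MAP2K1 had 3 GC boxes each, MAP2K2 had 2 and BRAF none, although the BRAF window did not lie at the outermost start. None of the 7 genes had the letters TATAAA on either strand, which were present in 11.6% of all windows. A match or its absence in these windows is a description of letters only.

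Signals are given as log2 of the background-corrected spot signal minus log2 of the 75th percentile of that array, so 0 is the level of the 75th percentile. That percentile lay between 1719 and 2689 signal units and 21782 to 24093 probes were detected per array, a probe being detected when more than 0.5 of its spots were well above background. All arrays shared 1 slide and 1 scan. The siControl array stood apart, as it was the farthest from the mean of the others for 55.8% of the 21239 probes detected on all arrays, against 14.4% to 15.1% for each other array. The members are therefore set against both negative controls. GRB2, the targeted gene, had levels of -0.65 with siGRB2, -0.10 with siControl, 0.07 with miR-376c and 0.62 with miControl. This is -0.55 for each treatment against its own control, but against the other control -1.27 with siGRB2 and 0.17 with miR-376c. All 8 markers of biliary or simple epithelium fixed for this cell line were detected on all arrays. Of 5 hepatocyte markers, 2 (SERPINA1 and APOA1) were detected on all arrays and 2 (ALB and TTR) on none. SERPINA1 lay above the 75th percentile on every array. Of the remaining lists, 2 of 4 leukocyte, 1 of 3 fibroblast and 2 of 3 endothelial markers were detected on all arrays.

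The genes of the kinase chain were all expressed, and MAPK3 differed most between the transfections. All 140 member spots on the 4 arrays were well above background and none was flagged. HRAS, BRAF and MAPK3 were each printed in 10 spots, whose SD on an array was 0.03 to 0.08 on the log2 scale. The other 5 probes had 1 spot. The error that the scanner software assigns to a signal was 0.14 to 0.15, and that of a difference between 2 arrays 0.20 to 0.21. Neither error includes the variation between cultures. The share of all probes with several spots whose spots did not overlap between arrays was not counted. A lack of overlap is therefore a description of these spots only. MAPK3 had the widest range over the arrays, 1.60 on the log2 scale or 3.03-fold, wider than that of 97.9% of the probes detected on all arrays. ARAF followed with 0.82 (wider than 74.2% of probes), BRAF with 0.78 (71.8%) and MAP2K1 with 0.70 (64.0%). The NRAS probes had ranges of 0.51 and 0.41 and MAP2K2 of 0.37, and HRAS had the smallest range, 0.31, wider than that of 16.7% of probes. In whole-cell RNA, a smaller share of cells expressing a gene and less RNA per cell cannot be told apart.

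**Figure D1:**
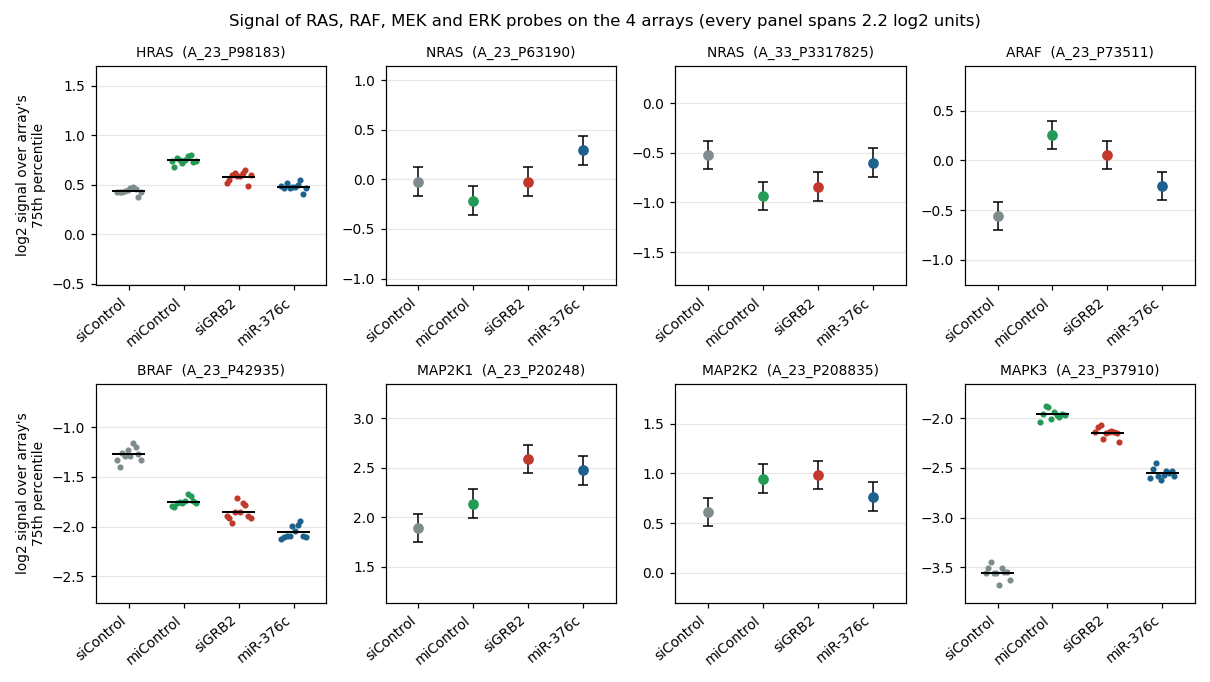
Log2 signal of each of the 8 probes over the 75th percentile of its array (vertical axis, 2.2 log2 units in every panel) on the siControl, miControl, siGRB2 and miR-376c arrays. Small points are the 10 spots of a probe with a line at their mean, and large points are single spots with the scanner error as a bar. The MAPK3 spots on the siControl array lie between -3.68 and -3.45, all below those of the other arrays.

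Of the RAS GTPases, HRAS varied least. Its level was 0.75 with miControl, 0.58 with siGRB2, 0.48 with miR-376c and 0.44 with siControl. HRAS was highest on the miControl array, where the lowest of its 10 spots (0.68) was above the highest spot of the siGRB2 array (0.64), while the spots of the miR-376c array overlapped with those of siControl and of siGRB2. The difference with miR-376c was -0.27 against miControl and 0.04 against siControl. The difference with siGRB2 was 0.14 against siControl and -0.17 against miControl. For both treatments the sign depended on the control chosen. A shift to the array medians turned the differences from siControl to -0.14 with siGRB2 and -0.12 with miR-376c, so that HRAS was then not lowest on siControl.

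NRAS was measured by a pair of single-spot probes. The first (A_23_P63190) had a level of 0.29 with miR-376c, -0.02 with siControl, -0.02 with siGRB2 and -0.22 with miControl. The second (A_33_P3317825) had levels of -0.52 with siControl, -0.60 with miR-376c, -0.84 with siGRB2 and -0.93 with miControl. In both probes miControl was lowest, with siGRB2 within the scanner error of it, but the highest array was miR-376c for the first probe and siControl for the second. Against miControl, NRAS was higher with miR-376c by 0.51 in the first probe and 0.34 in the second. Against siControl the probes disagreed, with 0.32 and -0.08. With siGRB2 the differences were -0.002 and -0.32 against siControl and 0.19 and 0.09 against miControl.

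The RAF kinases went opposite ways on the siControl array. ARAF had a level of 0.26 with miControl, 0.06 with siGRB2, -0.26 with miR-376c and -0.56 with siControl. BRAF had a level of -1.27 with siControl, -1.75 with miControl, -1.86 with siGRB2 and -2.06 with miR-376c. Between the negative controls (siControl minus miControl), ARAF differed by -0.82 and BRAF by 0.48. With siGRB2, ARAF differed by 0.62 from siControl but by -0.20 from miControl, and with miR-376c by 0.30 and -0.51 in the same order. Neither treatment thus gave ARAF the same direction against both controls. BRAF was lower on both treated arrays than on both controls. With siGRB2 the BRAF difference was -0.58 against siControl and -0.11 against miControl, where its spots overlapped, and the normexp background correction over all spots turned both to 0.89 and 1.37. With miR-376c it was -0.78 against siControl and -0.31 against miControl, and no spot overlapped in either.

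The MEK genes were less variable than MAPK3, and MAP2K1 was higher on both treated arrays than on both controls. MAP2K1 had a level of 2.59 with siGRB2, 2.47 with miR-376c, 2.14 with miControl and 1.89 with siControl. With siGRB2 it was higher by 0.70 against siControl and 0.45 against miControl, and with miR-376c by 0.58 and 0.34. The smallest of these gaps, 0.34, compares with a scanner error of 0.20 on a single spot. With siGRB2 the sign turned under the normexp correction over all spots, to -0.23 against siControl and -0.49 against miControl. MAP2K2 had a level of 0.99 with siGRB2, 0.95 with miControl, 0.77 with miR-376c and 0.61 with siControl. Its differences were 0.37 and 0.04 with siGRB2, against siControl and miControl, and 0.15 and -0.18 with miR-376c. MAP2K2 on the siGRB2 array was thus within the scanner error of miControl.

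Of the 8 member probes, 1 (MAP2K1) was higher on both treated arrays than on both negative controls, as were 21.3% of all probes detected on all arrays. Another (BRAF) was lower on both, as were 13.6% of all. At such shares of the whole array, neither count is a result about the members.

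MAPK3 (ERK1) was the member whose reading depended most on the control. Its level was -1.96 ± 0.05 with miControl, -2.14 ± 0.05 with siGRB2, -2.55 ± 0.05 with miR-376c and -3.56 ± 0.06 with siControl (SD between 10 spots of 1 array). Spots of different arrays did not overlap in any of the 6 pairs of arrays, and all 10 spots on siControl were below all 30 spots of the others. Small differences can separate spots too, as those of HRAS did not overlap between siGRB2 and siControl at 0.14, below the scanner error. In signal units the spots averaged 693, 452, 352 and 146, against a lowest detected signal of 21.2 to 24.4 for a probe. MAPK3 was 2.66-fold higher with siGRB2 than with siControl (log2 difference 1.41) but 87.9% of miControl (-0.19), a difference below the scanner error of 0.21. With miR-376c it was 66.2% of miControl (-0.59) and 2.004-fold of siControl (1.003). The negative controls differed more than any treated array did from either, since siControl held 33.0% of the signal of miControl (-1.60). The treated arrays differed from each other by 0.41 (siGRB2 minus miR-376c).

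**Figure D2:**
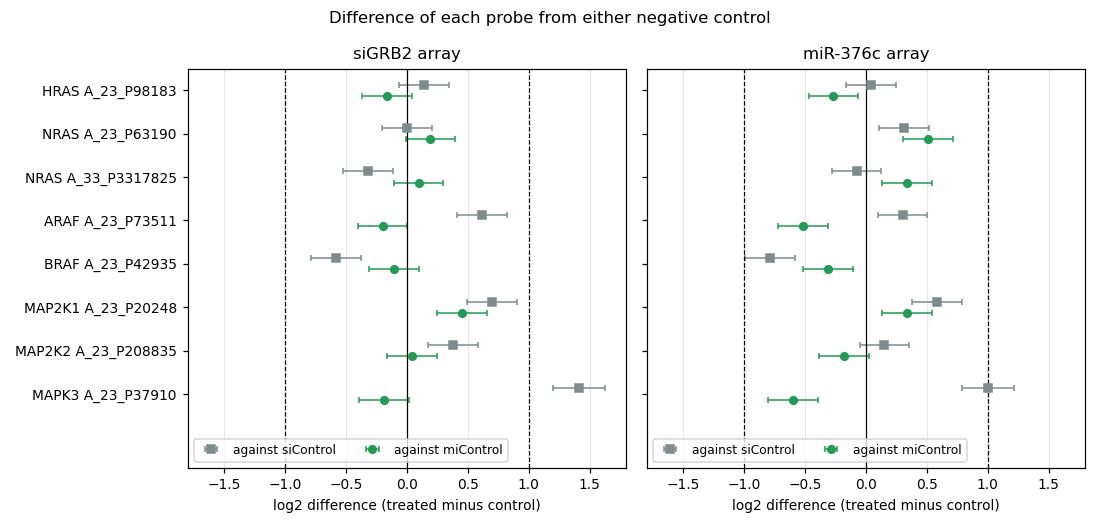
Log2 difference of each member probe on the siGRB2 array (left) and the miR-376c array (right) from siControl (squares) and from miControl (circles). Bars are the scanner error of the difference and dashed lines mark 2-fold. MAPK3 with siGRB2 lies at 1.41 against siControl and at -0.19 against miControl, while MAP2K1 lies above 0 in all 4 differences.

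At a limit of 2-fold, MAPK3 was the only member probe called in any pair of arrays under this processing. None of the 8 probes differed at least 2-fold between miR-376c and miControl, where 3.04% of all tested probes did, and none between siGRB2 and miControl (2.94% of all) or between siGRB2 and miR-376c (2.89% of all). MAPK3 alone was called between siGRB2 and siControl (9.81% of all), between miR-376c and siControl (7.26%) and between siControl and miControl (9.16%). All 3 comparisons in which it was called thus used the siControl array, and in none of the others was any member called. The median size of a member's difference was 0.34 for miR-376c against miControl, beside 0.20 for all probes, and 0.48 for siGRB2 against siControl, beside 0.42. For siGRB2 against miControl it was 0.18, beside 0.17, and for miR-376c against siControl 0.31, beside 0.36.

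Compared with the mean of the other 3 arrays, siControl was lower for 6 of the 8 member probes and was the farthest array for 5. It was the farthest for 55.8% of all probes detected on all arrays, and their median deviation on it was -0.12. Neither count is thus a result about the members. The count of 6 depends on the processing. It was 4 with a shift to the array medians, where HRAS (0.07) and the first NRAS probe (0.20) lay above the mean of the others, 5 in the deposited log2 values and 7 under the normexp correction over all spots. MAPK3 deviated there by -1.34, a size larger than that of 98.5% of the probes, BRAF by 0.61 and ARAF by -0.58. Dim probes were lower on this array in general. The median deviation was -0.29 in the lowest quartile of probes by mean level, -0.23 in the next, which holds MAPK3 and BRAF, -0.07 in the quartile with HRAS, NRAS, ARAF and MAP2K2, and 0.08 in the highest, with MAP2K1. MAPK3 was farther below than the median of its quartile, where the SD was 0.53, and BRAF of the same quartile lay above 0. After quantile normalization, which equalizes the distributions of the arrays, the deviation of MAPK3 on siControl was -1.09 in place of -1.34. The part of signal level or of the siControl array itself in these values was not tested. The order shared by HRAS, ARAF and MAPK3 was held by 10.71% of all probes and was the second most frequent of the 24 possible orders.

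**Figure D3:**
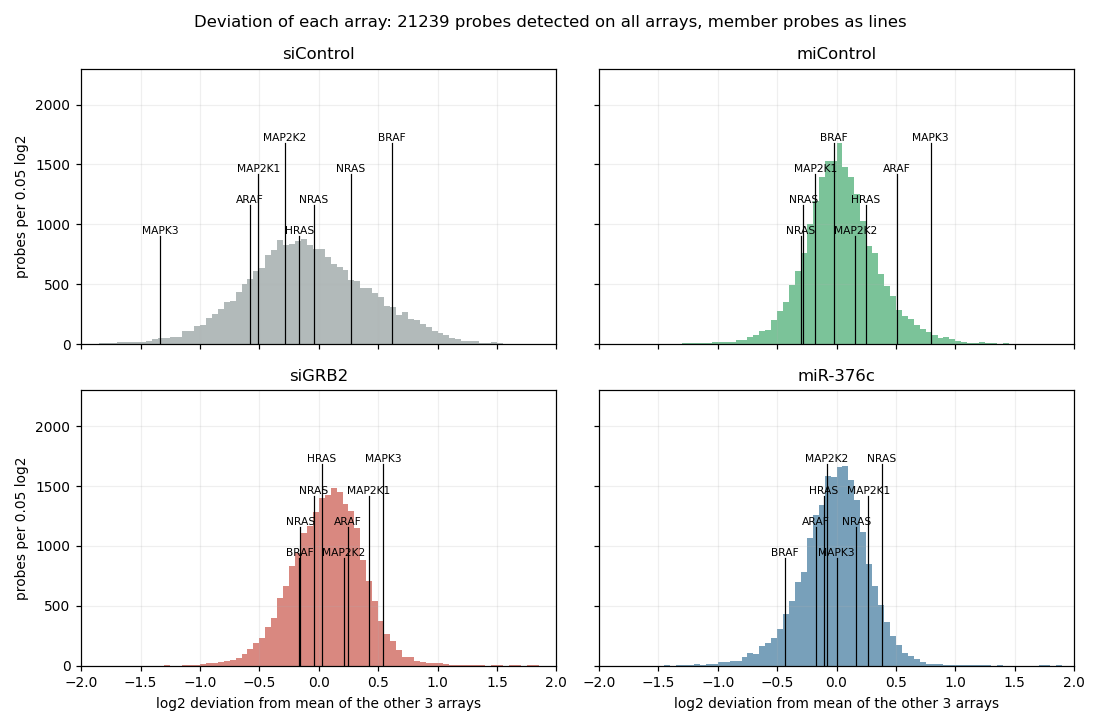
Number of probes (vertical axis, per 0.05 log2) by their log2 deviation from the mean of the other 3 arrays, for each array and the 21239 probes detected on all arrays. Black lines mark the member probes, at heights that carry no value. The spread is widest for siControl (SD 0.53), and MAPK3 lies at -1.34 there and at 0.79 on miControl.

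The probes nearest to MAPK3 in pattern, by the root mean square difference of the 4 levels after each probe's mean was removed, were those of PIAS4 (0.022), CLPTM1 (0.023) and KCTD5 (0.041). Of 21231 probes compared, 851 lay within 0.25, a tolerance chosen for description. CLPTM1, for example, deviated from its own mean by -1.02 on siControl and 0.57 on miControl, beside -1.003 and 0.59 for MAPK3.

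The processing moved the size of the MAPK3 differences. Under the 9 other ways of processing values or spots, it ranged from 1.09 to 2.70 for siGRB2 against siControl and from -0.64 to -0.47 for miR-376c against miControl. Against siControl, the miR-376c difference ranged from 0.74 to 1.06, so that its 2-fold call, at 1.003, was lost under 5 of them. Keeping flagged spots, requiring detection on both arrays or using no filter could not change a MAPK3 difference, as its spots were unflagged and well above background. For siGRB2 against miControl it ranged from -0.24 to -0.15 except under the normexp correction over all spots, which gave 1.49. The same correction gave -0.15 when spots were left out whose local background was flagged or above 10 times the array median. The cause of this change was not tested.

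**Figure D4:**
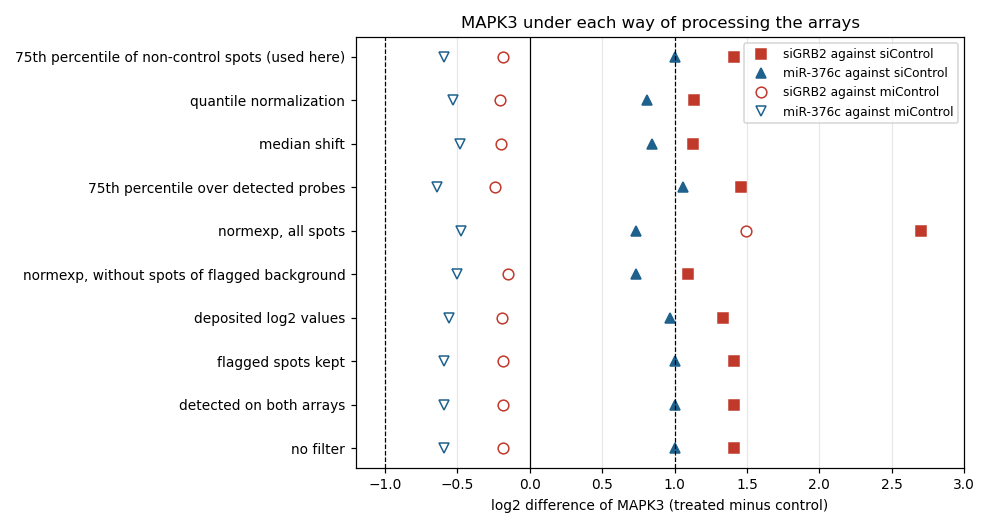
Log2 difference of MAPK3 (horizontal axis) for siGRB2 (red) and miR-376c (blue) against siControl (filled) and miControl (open), with the processing used here in the top row and 9 alternatives below it. Dashed lines mark 2-fold. Differences from siControl lie above 0 and those from miControl below 0 in every row, except siGRB2 against miControl under the normexp correction over all spots, at 1.49.

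Around the kinases, 88 further genes of the pathway were listed, of which 87 had a probe (134 probes) and 77 were detected on all arrays. With neither treatment was any of them past 2-fold, one way, against both negative controls. With miR-376c against miControl, 1 of 82 tested genes was higher and 2 were lower, and the median over the probes was -0.14, beside -0.03 for all probes. With siGRB2 against siControl, 7 of 79 were higher and 3 lower (median 0.25, beside 0.18 for all). With siGRB2 against miControl, 1 was higher and 1 lower of 82 (median -0.04, beside 0.02), and with miR-376c against siControl 2 were higher and 5 lower of 78 (median 0.12, beside 0.10). Of the probes of the list, 2.46%, 9.40%, 1.64% and 6.14% were called in these comparisons, near the shares of all probes given above. Between the negative controls (siControl against miControl), 3 of 82 tested genes were higher and 9 were lower. There 13.1% of the list's probes were called, beside 9.16% of all. The split by direction depends on the scaling. Over all probes, siGRB2 against siControl gave 1567 higher and 723 lower, but 679 and 1908 with a shift to the array medians, which moved the median difference from 0.15 to -0.13, and miR-376c against siControl gave 898 and 768, but 543 and 1295.

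ICMT, which methylates the processed end of RAS proteins, was the list gene higher in both comparisons with miControl. Its level was -1.68 with miR-376c, -1.71 with siGRB2, -1.95 with siControl and -2.80 with miControl. It differed from miControl by 1.12 with miR-376c and 1.09 with siGRB2, but from siControl by only 0.27 and 0.25. The miControl array was thus the low one for ICMT. The 2 lower genes with miR-376c against miControl were the ERK-activated kinase RPS6KA2 and the scaffold subunit LAMTOR3 (A_33_P3251480), whose probe was well above background on miControl only and was at least 2.21-fold lower with miR-376c (log2 -1.14). That probe was also the lower one with siGRB2 against miControl, at least 2.25-fold (log2 -1.17). Another LAMTOR3 probe (A_23_P110362), detected on all arrays, differed by 0.003 and -0.16. That RPS6KA2 probe (A_33_P3399943) differed by -1.10 from miControl but by 0.16 from siControl, and other RPS6KA2 probes differed from miControl by 0.02 (A_33_P3347452) and -0.29 (A_33_P3399935). RPS6KA2, LAMTOR3, MAPK12 and SOS1 were named after their values were seen.

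With both treatments, probes of the same 5 list genes were past 2-fold from siControl, and 4 of these probes were detected on all arrays. RPS6KA5 (A_23_P37375), a kinase activated by ERK, had levels of 2.45 with siControl, 1.05 with miControl, 0.91 with siGRB2 and 0.87 with miR-376c. Its difference was -1.54 with siGRB2 and -1.58 with miR-376c against siControl, and -0.14 and -0.18 against miControl. A second RPS6KA5 probe (A_33_P3316562) gave -1.11 and -0.58 against siControl, and -0.17 and 0.35 against miControl. The RAS-related GTPase RALB behaved alike, with -1.22 and -1.29 against siControl and 0.05 and -0.02 against miControl. In MKNK2, another kinase downstream of ERK, the probe A_23_P142310 gave -1.24 and -1.16 against siControl, and -0.31 and -0.23 against miControl. The other MKNK2 probe (A_24_P929754) disagreed, with 0.53 and 0.03 against siControl. In the opposite direction, the MAP2K3 probe A_33_P3234571 gave 1.28 and 1.40 against siControl and -0.40 and -0.29 against miControl, with 0.78 and 0.90 against siControl for a second probe (A_23_P118427) and -0.13 and 0.06 for the remaining probe (A_24_P296698). The fifth gene, the p38 kinase gene MAPK12 (A_33_P3763846), was not well above background on siControl, where it was at least 2.37-fold lower than with siGRB2 and at least 2.81-fold lower than with miR-376c. Against miControl, MAPK12 differed by -0.69 with siGRB2 and -0.44 with miR-376c.

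By role, the RAS exchange factors had no gene past 2-fold against the matching control with either treatment. RASGRP1, an exchange factor, had levels of -3.12 with siGRB2, -3.64 with siControl, -4.08 with miControl and -4.73 with miR-376c. It differed by -1.09 with miR-376c against siControl and -0.65 against miControl, by 0.52 and 0.96 with siGRB2 in the same order, and by 1.61 between siGRB2 and miR-376c. SOS2, which loads RAS with GTP, differed by -0.32 with miR-376c and -0.20 with siGRB2 against miControl, and by -0.29 and -0.17 against siControl. SOS1 went the other way against siControl, with 0.32 and 0.55 in the probe A_23_P343808 and 0.58 and 0.62 in A_33_P3356406. Against miControl these SOS1 probes gave -0.35 and -0.12, and -0.29 and -0.25, again with miR-376c first. Of the RAS GTPase-activating proteins, 10 were tested for miR-376c against miControl and 8 for siGRB2 against siControl, and 1 was past the limit in these comparisons, NF1 (A_33_P3240348), at 1.18 with siGRB2 against siControl but -0.13 against miControl. Other NF1 probes gave 0.61 (A_24_P1919) and 0.79 (A_24_P917026) with siGRB2 against siControl, and -0.56 and 0.49 against miControl. NF1 encodes neurofibromin, which switches RAS off. Of the enzymes that attach lipids to RAS, FNTB, the beta subunit of farnesyltransferase, was 1.03 higher with siGRB2 against siControl and 0.02 against miControl. None of the 17 scaffolds and RAF regulators tested, of 20 listed, was called with siGRB2 against siControl. Of these, CDC37, a chaperone partner of kinases such as RAF, gave 0.89 against siControl and 0.09 against miControl. Of the other MAP kinases, MAPK13 (a p38 kinase) had a probe (A_24_P406132) that differed by -0.20 to -0.19 from either control with either treatment. Its other probe (A_23_P145376) gave 0.35 with each treatment against siControl, and -0.25 with siGRB2 and -0.26 with miR-376c against miControl.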

How the data were processed

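Spot intensity values of 4 single-colour arrays (200 ng RNA each) were deposited by the authors as Agilent Feature Extraction output (10.7.3.1), with background-corrected signals and flags. The authors also deposited a log2 table, normalized by them to the 75th percentile. It equalled the log2 scanner signal minus a constant within 0.01 for 99.45% to 99.54% of probes per array. Its scale and direction are thus known, and its column medians were -3.60 to -3.36.

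Here log2 of the processed signal minus the 75th percentile of non-control spots was computed using pandas (2.3.3), numpy (2.4.6) and Python (3.11.15). Flagged spots (289 to 329 per array) were left out, and spots of a probe averaged. A probe was tested when detected on at least 1 of the 2 arrays. When it was detected on only 1, the fold is a bound against the higher of its own dim signal and the lowest detected signal there. Alternatives used R (4.3.3) and limma (3.58.1). The calling step was run on simulated data with changes well beyond the 2-fold limit and less noise than the differences between these arrays. That run checks the code only and gives no error rate for these data. Probes were paired with genes by accession through RefSeq, whose sequences carry GRCh38.p14 coordinates. The scanner files name another build, and no coordinate of theirs is printed.

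Named were the members, GRB2, list genes at least 2-fold from both controls (none met this), the 2 brightest and 2 most different genes of each list where they add to the text, and the 3 probes most like the member of widest range. Members and lists were chosen with earlier results of these data known. Of the core list, 3 further genes are counted but not reported here. The alternatives are given with their effect in the closing section. A search of 3′ untranslated regions for the seed was not made.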

Additional observations from a re-analysis of the deposited data

Results flagged for a closer look

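In 3 member probes, miR-376c and siGRB2 went in opposite directions, each against its own negative control and by more than the scanner error. The share of all probes that did so was not counted, so this number is no result about the members. For NRAS the siGRB2 sign turned under normexp over all spots. MAPK3 differed by -0.59 with miR-376c and 1.41 with siGRB2, ARAF by -0.51 and 0.62, and the NRAS probe A_33_P3317825 by 0.34 and -0.32. With 1 array per condition the difference between the treatments was not tested. Set against miControl alone, the same probes gave with siGRB2 -0.19 for MAPK3, -0.20 for ARAF and 0.09 for NRAS, which are the directions seen with miR-376c. Set against siControl alone, miR-376c gave 1.003 for MAPK3, 0.30 for ARAF and -0.08 for NRAS, which are the directions seen with siGRB2.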

How the results depend on the processing

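No paired analysis was possible because every transfection gave a single array. Of 432 differences of member probes recomputed under 9 other ways of processing, 41 moved by more than the scanner error. Of the 432, 22 changed sign, none of them from a 2-fold call in one direction to one in the other. Of these sign changes 13 arose with normexp over all spots, 6 with the median shift, 2 with the percentile over detected probes and 1 with normexp without spots of flagged background. Keeping flagged spots, requiring detection on both arrays and using no filter could not move any of their 48 differences each. No member spot was flagged and all 140 were well above background. The count of member probes past 2-fold between miR-376c and siControl, 1 as reported, was 0 under quantile normalization, the median shift, either normexp correction, the deposited log2 values and a 3-fold limit. At 1.5-fold it was 2 (27.7% of all tested probes). For siGRB2 it was 2 against miControl (54.5% of all) and 2 against miR-376c (58.3% of all) under normexp over all spots. At 1.5-fold it was 1 for miR-376c against miControl (11.3% of all), 3 for siGRB2 against siControl (33.8%) and 2 for siControl against miControl (29.2%). At 3-fold it was 0 for siGRB2 against siControl (2.15%). The count of other pathway genes for siGRB2 against siControl (10 as reported) was 5 under quantile normalization, 54 under normexp over all spots, 2 under normexp without spots of flagged background, 36 at 1.5-fold and 0 at 3-fold. For miR-376c against miControl (3) it was 1 under either normexp correction, 5 with no filter, 8 at 1.5-fold and 0 at 3-fold. For siGRB2 against miControl (2) it was 50 under normexp over all spots, 1 without spots of flagged background, 1 with detection on both arrays, 7 at 1.5-fold and 0 at 3-fold, and for miR-376c against siControl (7) 4 under normexp without spots of flagged background, 23 at 1.5-fold and 0 at 3-fold. Under normexp over all spots, 64.0% of all probes were past 2-fold for siGRB2 against siControl and 54.5% for siGRB2 against miControl. At 1.5-fold the share of all probes was 8.59% for siGRB2 against miControl. Apart from the fold limits and the filters, the cause of these changes was not tested. The number of arrays limits every comparison.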
